A study of Mus musculus with 9 samples.

Results

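The genes described here are 39 genes of fatty acid oxidation and of the PPAR response, chosen by name, out of 27339 genes with a line in the deposited table. They were read in bulk RNA sequencing of mouse substantia nigra pars compacta, where the dopamine neurons of the midbrain lie. There were 9 libraries in 3 groups of 3: controls (Ctrl, whose handling the labels do not describe), mice given MPTP, and mice given MPTP with MCT-KD, a ketogenic diet whose fat is largely medium-chain triglyceride. The last group is called the diet group (MPTP_MCTKD in the plots). MPTP is a toxin that, once oxidised in the brain, is taken up by dopamine neurons and inhibits complex I of the respiratory chain. The labels give no strain, age, sex, dose or duration, and they do not say that libraries of a group came from separate animals, so the p-values cover spread between libraries, which may be technical. The diet was read only in mice that had also had MPTP.

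Mitochondrial fatty acid oxidation cuts fatty acids into acetyl-CoA, in rounds of dehydrogenation, hydration, a further dehydrogenation and thiolysis. Long chains reach the matrix only as carnitine esters, while medium chains can enter without that shuttle, and Acadm, the medium-chain acyl-CoA dehydrogenase, takes chains of the length that this diet is rich in. The PPARs are nuclear receptors that bind fatty acids and, with RXR partners, turn on genes of fat use in liver, muscle and fat tissue. Brain as a whole burns little fatty acid, most of it in astrocytes.

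By role, 22 of the 39 genes encode oxidation enzymes and carnitine carriers and 4 encode acyl-CoA synthetases and thioesterases. A further 9 are grouped here as PPAR-induced genes, and 4 are the receptors and their coactivator. The grouping is not exclusive, since genes of other roles, such as Ehhadh, can be PPAR targets too. Ehhadh and Acaa1a, counted with the oxidation enzymes, act in peroxisomes, and Crat, the carnitine acetyltransferase, acts on acetyl groups. Differences between groups were tested with edgeR on the counts of the 14949 genes whose mean FPKM (fragments per kilobase of transcript and M fragments, M being the SI prefix mega) was at least 0.5, with p-values adjusted over all of them. The filter kept 37 of the 39 genes. Cpt1b, the muscle form of carnitine palmitoyltransferase 1, lay below it at a mean of 0.111 FPKM and Pparg below it at 0.396 FPKM. Just above it lay Cd36 at 0.575 FPKM and Ppara at 0.677 FPKM.

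None of the 37 tested genes passed an adjusted p of 0.05 in any of the 3 comparisons by edgeR, and none passed with DESeq2 or limma. The smallest adjusted p among them by edgeR was 0.904 for MPTP against Ctrl, 0.63 for the diet group against MPTP and 0.74 for the diet group against Ctrl, and 0, 2 and 3 of them had an unadjusted p under 0.05. The enzymes of oxidation had fold changes within narrow bounds. The PPAR-induced genes had a higher median spread between libraries of the same group, Plin4 the widest, and their fold changes were less closely bounded. Not all of them were widely spread for their level. The background of calls was as low: 0.0134% of all tested genes passed for MPTP against Ctrl, 0% for the diet group against MPTP and 0% for the diet group against Ctrl.

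Total counts per library lay between 33.2 and 40.0 M. The 10 dopamine neuron markers were all detected, with a summed level of 846 to 1011 CPM (counts per M) in Ctrl, 722 to 822 CPM in MPTP and 674 to 836 CPM in the diet group. Choroid plexus markers summed to 1307 CPM in Ctrl 3 and to 44.8 to 124 CPM in the other libraries. Muscle fibre markers summed to 16.3 CPM in library 1 of the diet group and to 5.3 to 7.16 CPM elsewhere. In bulk tissue, fewer cells of a type and less RNA per cell cannot be told apart.

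The sequence just upstream of the start site is shown for 5 genes. Acadm and Cpt1a are oxidation genes whose RefSeq window holds the motif AGGTCA, the hexamer bound by PPARs and many other nuclear receptors. Pdk4 and Plin4 are PPAR-induced genes whose window does not. Hadhb is shown for the gap between it and its neighbour Hadha in GENCODE. Each sequence runs 5′ to 3′ on the gene's strand, without annotated exon bases, from RefSeq on GRCm38.p6. The stretch of Cpt1a lies inside the span of the gene in GENCODE (chromosome 19, 3322334 to 3385733), outside its exons. Capitals mark TGACCT, the reverse complement of AGGTCA.
Acadm, chr3:153944644-153944893, minus strand: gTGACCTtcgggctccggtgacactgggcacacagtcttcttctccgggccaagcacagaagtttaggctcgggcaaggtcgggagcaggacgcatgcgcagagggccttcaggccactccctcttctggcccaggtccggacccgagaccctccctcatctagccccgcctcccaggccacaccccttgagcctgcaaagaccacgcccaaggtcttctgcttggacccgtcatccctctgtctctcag
Cpt1a, chr19:3323051-3323284, plus strand: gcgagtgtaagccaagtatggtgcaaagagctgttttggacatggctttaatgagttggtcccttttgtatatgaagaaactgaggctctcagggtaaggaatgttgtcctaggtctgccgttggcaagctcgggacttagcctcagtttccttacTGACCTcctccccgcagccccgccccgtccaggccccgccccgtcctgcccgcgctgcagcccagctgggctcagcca
Pdk4, chr6:5496310-5496528, minus strand: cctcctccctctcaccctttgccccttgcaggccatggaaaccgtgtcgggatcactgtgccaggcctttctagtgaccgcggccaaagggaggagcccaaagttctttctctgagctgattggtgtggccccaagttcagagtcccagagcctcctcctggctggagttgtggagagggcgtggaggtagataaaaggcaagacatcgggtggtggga
Plin4, chr17:56109804-56110032, minus strand: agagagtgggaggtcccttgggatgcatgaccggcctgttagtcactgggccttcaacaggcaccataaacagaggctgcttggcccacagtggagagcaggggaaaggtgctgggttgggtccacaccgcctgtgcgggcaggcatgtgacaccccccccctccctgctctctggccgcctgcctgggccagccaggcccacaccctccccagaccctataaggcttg
Hadhb, chr5:30155163-30155247, plus strand: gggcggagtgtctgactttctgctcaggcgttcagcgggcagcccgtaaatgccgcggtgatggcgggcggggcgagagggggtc

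RefSeq start-site windows, which reach from 250 bases before to 50 bases after the start, were at hand for 35 of the 39 genes. On either strand, AGGTCA occurred in the windows of 10 of these 35: the oxidation genes Acadm, Acadvl, Cpt1a, Cpt1c and Echs1, the PPAR-induced genes Cd36, Fabp7, Plin2 and Ucp3, and Pparg. Counted by window it was 11 of 38, beside 16.3% of all 32851 windows. A direct repeat of AGGTCA with 1 base between the copies, the usual form of a PPAR and RXR site, was in 0 of the 38 windows and in 0.0396% of all. TNAAGGTCA, an extended form used by single receptors such as the estrogen-related ones, was in 0 of them and in 1.28% of all, and each of these longer motifs holds AGGTCA within it. The palindrome of GNACA and TGTNC with 3 bases between, a form bound by the glucocorticoid receptor, was in 0 of them and in 0.475% of all. These matches describe letters in short windows only. Hadha and Hadhb, the alpha and beta subunits of the trifunctional protein, are transcribed away from each other, with 272 bases between their RefSeq start sites, so 228 bases lie in the windows of both.

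Levels are compared between genes in FPKM, which is per length. The highest of the set was Hadhb at 38.7 FPKM, averaged over the 9 libraries, above 93.7% of all genes in the table. Fabp3 at 32.7 FPKM and Fabp7 at 31.4 FPKM, cytosolic fatty acid carriers of heart and of glia, came next. Of the oxidation enzymes Echs1 followed at 31 FPKM, Acaa1a at 30.9 FPKM, Etfb at 29.1 FPKM and Etfa at 24.6 FPKM. Acadm lay at 16.1 FPKM, above 83.9% of all genes. Of the other genes grouped as PPAR-induced, Ucp2 lay at 10.6 FPKM and Plin2 at 4.43 FPKM. Below these were Pdk4 at 3.54 FPKM, Plin4 at 2.33 FPKM, Ucp3 at 2.11 FPKM, Angptl4 at 1.02 FPKM and Cd36 at 0.575 FPKM. Some oxidation genes lay in that range too, such as Ehhadh at 1.3 FPKM.

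**Figure D1:**
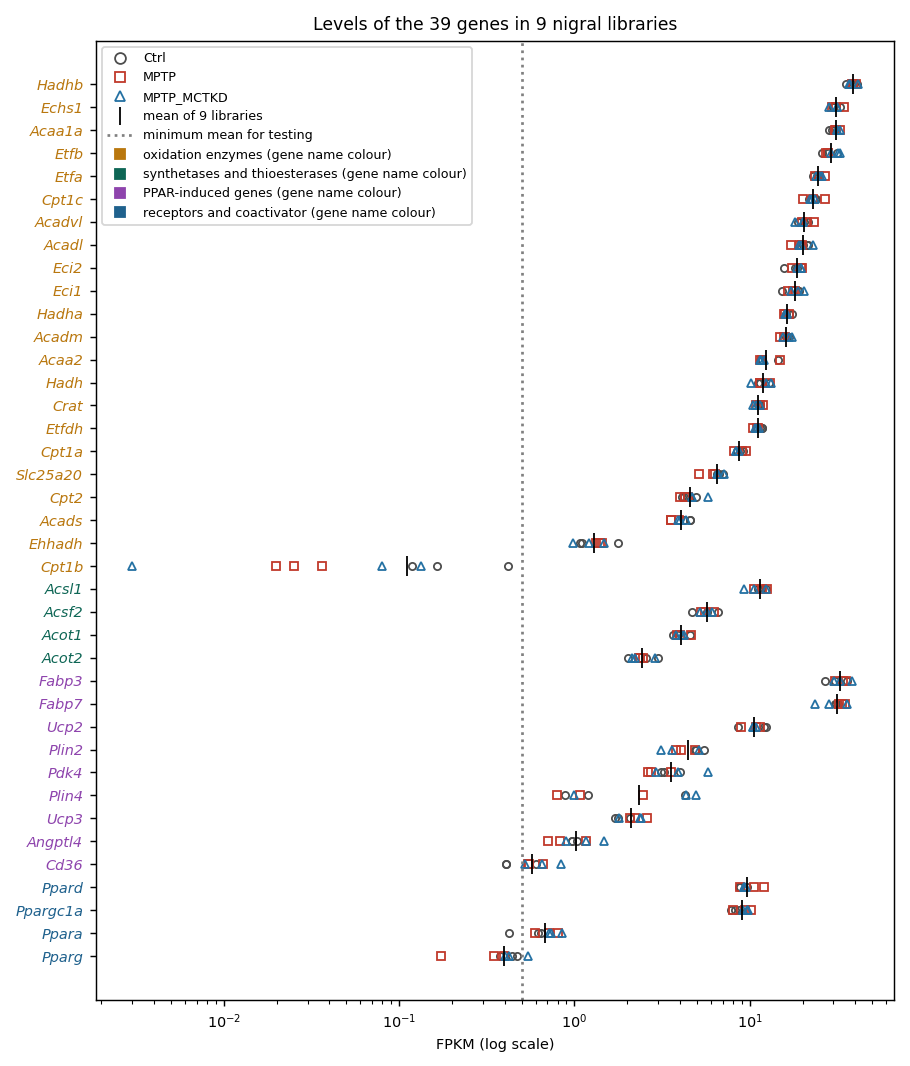
Level of each of the 39 genes in FPKM on a log axis. Each symbol is 1 library, its shape and colour giving the group, the black tick is the mean of the 9 libraries, the colour of a gene's name gives its role and the dotted line marks the mean of 0.5 FPKM needed for testing. Hadhb is highest at 38.7 FPKM, the libraries of most oxidation enzymes lie close together, and Plin4 is spread widely.

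The carnitine shuttle has 6 genes here, of which 5 were tested. Cpt1a, the liver form of the outer membrane enzyme that commits long chains to oxidation, held 38.6, 40.2 and 40.9 CPM in Ctrl, 41.4, 36.9 and 42 CPM in MPTP and 38.1, 39.6 and 38 CPM in the diet group. The 3 groups overlapped. Its log2 fold change was 0.0079 (SE 0.0694) for MPTP against Ctrl, -0.057 (SE 0.0695) for the diet group against MPTP and -0.049 (SE 0.0694) for the diet group against Ctrl, with adjusted p of 0.997, 0.879 and 0.929 by edgeR. The second estimate was -0.11 without MPTP 2 and -0.022 without MPTP 3, and the third was -0.029 without Ctrl 3. The 95% interval of the fold between the diet group and MPTP ran from 0.866 to 1.07. Cpt1c, the neuronal form that has little enzyme activity, lay above it at 23 FPKM against 8.71 FPKM, and the ratio of their FPKM was 2.65 ± 0.146 (SD over 9 libraries). Cpt1b was near 0 in every library, at 0.003 to 0.42 FPKM and 2 to 23 reads. No fold of it is read here, because 78.5% of its 100-base stretches also occur in the overlapping gene Gm44502 and its counts and FPKM values implied transcript lengths that differed 12.5-fold between libraries.

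Cpt2, the inner membrane enzyme that hands the chain back to coenzyme A, stood at 10.6, 10.3 and 12.2 CPM in Ctrl, 10.1, 11.1 and 10.5 CPM in MPTP, and 11.9, 14.5 and 11.9 CPM in the diet group. All 3 diet libraries lay above all 3 MPTP libraries, and they overlapped those of Ctrl. The log2 fold change of the diet group against MPTP was 0.27 (SE 0.124), with an unadjusted p of 0.0459 and an adjusted p of 0.632 by edgeR. Without library 2 of the diet group it was 0.17. Against Ctrl it was 0.21 (SE 0.123, adjusted p 0.799), and 0.11 without the same library. Slc25a20, the carrier that exchanges acylcarnitines for carnitine, held 12.6, 12.3 and 13.1 CPM in Ctrl, 11.7, 9.7 and 11.7 CPM in MPTP and 13.6, 12.3 and 12.6 CPM in the diet group. The MPTP libraries were the 3 lowest. For MPTP against Ctrl its log2 fold change was -0.2 (SE 0.113, adjusted p 0.915 by edgeR), and -0.11 without MPTP 2. Crat, which buffers acetyl-CoA as acetylcarnitine, lay between 41.8 and 46.2 CPM in all 9 libraries.

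The 4 acyl-CoA dehydrogenases take chains of different length. Acadm (chromosome 3, 153922357 to 153944632, minus strand, GRCm38) held 34.7, 34.5 and 35.4 CPM in Ctrl, 34.7, 33.7 and 30.6 CPM in MPTP and 33.6, 37.3 and 36.1 CPM in the diet group. The lowest library was MPTP 3 and the groups overlapped. Its log2 fold change was -0.079 (SE 0.0729, adjusted p 0.948) for MPTP against Ctrl, 0.11 (SE 0.073, adjusted p 0.733) for the diet group against MPTP and 0.032 (SE 0.0727, adjusted p 0.952) for the diet group against Ctrl, by edgeR. The 95% intervals of the fold ran from 0.849 to 1.06, from 0.969 to 1.2 and from 0.917 to 1.14. With 1 library left out the 3 estimates ranged from -0.11 (without MPTP 1) to -0.026 (without MPTP 3), from 0.06 (without MPTP 3) to 0.15 (without MPTP 1), and from 0.0037 (without library 2 of the diet group) to 0.074 (without library 1). A change of Acadm by 1.5-fold in either direction lay outside all 3 intervals.

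Acadl, for long chains, held 40.7, 43.5 and 42.7 CPM in Ctrl, 35, 40.1 and 37.9 CPM in MPTP and 40.3, 46.5 and 39.2 CPM in the diet group. The MPTP libraries lay below every Ctrl library, and the diet group overlapped both. The log2 fold change was -0.17 (SE 0.08) for MPTP against Ctrl, with adjusted p of 0.904 by edgeR, and 0.16 (SE 0.0801, adjusted p 0.663) for the diet group against MPTP. The second estimate was 0.08 without library 2 of the diet group. Acads, for short chains, held 9.04, 8.37 and 8.86 CPM in Ctrl, 7.87, 7.04 and 6.86 CPM in MPTP and 7.78, 8.02 and 8.6 CPM in the diet group. The MPTP libraries were again below every Ctrl library, and the diet group overlapped both. MPTP against Ctrl gave -0.27 on the log2 scale (SE 0.131), with unadjusted p of 0.0578 and adjusted p of 0.904 by edgeR. Per length Acadm was 3.98 ± 0.288 times as abundant as Acads (ratio of FPKM, SD over 9 libraries). Acadvl, for very long chains, lay at 41.7 to 52 CPM with overlapping groups. Of its exon bases 42.9% overlap Dvl2 on the other strand, whose reads cannot be told apart without strand.

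Electrons from these dehydrogenases pass through the flavoprotein Etfa and Etfb to Etfdh and on to ubiquinone. Etfdh had the smallest within-group spread of the set, with 29.5, 28.9 and 28.8 CPM in Ctrl, 26.6, 27.9 and 26.9 CPM in MPTP and 27.1, 27.8 and 28.5 CPM in the diet group. Every Ctrl library was above every other library, the nearest values being 28.8 and 28.5 CPM. Etfdh passed in neither comparison with Ctrl. Of all tested genes 5.41% lay wholly below Ctrl in MPTP and 6.4% in the diet group. Etfb held 27, 24.8 and 22.8 CPM in Ctrl, 25.3, 22.8 and 21.9 CPM in MPTP and 25.3, 26.7 and 27 CPM in the diet group. The groups overlapped, and the log2 fold change of the diet group against MPTP was 0.17 (SE 0.0886, adjusted p 0.662 by edgeR). Of its 100-base stretches 47.7% also occur in Gm45233, so its reads may be shared with that gene. Etfa lay at 33.8 to 39.1 CPM with overlapping groups, and the ratio of Etfb to Etfa in FPKM was 1.18 ± 0.109 (SD over 9 libraries). Over the 7 dehydrogenase and electron transfer genes the median log2 fold change was -0.093 for MPTP against Ctrl, 0.11 for the diet group against MPTP and -0.0096 for the diet group against Ctrl. The first 2 comparisons share the MPTP libraries. The same medians over all tested genes were -0.00092, 0.00056 and -0.0015. Over the 5 tested genes of the carnitine shuttle they were 0.0059, -0.019 and -0.003. Over the 9 genes of the later steps, given next, they were 0.029, -0.00086 and 0.014.

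The later steps of each round, hydration, isomerisation, the second dehydrogenation and thiolysis, were covered by 9 genes. Hadha lay at 66.2 to 73.1 CPM and Hadhb at 76.6 to 89.7 CPM, both with overlapping groups. Although both subunits enter the same protein complex, the ratio of Hadhb to Hadha in FPKM was 2.38 ± 0.135 (SD over 9 libraries), lying between 2.21 and 2.61. That ratio is uncertain because 46% of the 100-base stretches of Hadhb also occur in Gm13910. Acaa1a, the peroxisomal thiolase, held 51.3, 51.1 and 53.3 CPM in Ctrl, 58.3, 55.1 and 53.4 CPM in MPTP and 57.5, 56.8 and 59.2 CPM in the diet group. All MPTP and all diet libraries lay above all Ctrl libraries. The log2 fold change of the diet group against Ctrl was 0.16 (SE 0.0581), with unadjusted p of 0.0189 and adjusted p of 0.74 by edgeR, and 15.7% of its 100-base stretches also occur in Acaa1b.

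Eci2, an isomerase for unsaturated chains found in mitochondria and peroxisomes, held 29.2, 28.8 and 25.9 CPM in Ctrl, 29.5, 31.7 and 29.8 CPM in MPTP and 31.2, 29.7 and 30 CPM in the diet group. Its Ctrl libraries were the 3 lowest in CPM, but in FPKM Ctrl 1 and Ctrl 2 (18.1 and 18.7) lay above MPTP 1 (17.5), and Ctrl 2 above library 2 of the diet group (18.5). Between the diet group and Ctrl the log2 fold change was 0.12 (SE 0.0749, adjusted p 0.823 by edgeR), and 0.066 without Ctrl 3. Eci1, its mitochondrial counterpart, lay at 17 to 21 CPM, Echs1, the short-chain hydratase, at 47.3 to 57 CPM, Hadh, the medium and short-chain hydroxyacyl-CoA dehydrogenase, at 19.4 to 25.1 CPM and Acaa2, the mitochondrial thiolase, at 18.5 to 23 CPM. The groups of each overlapped. Ehhadh, the peroxisomal bifunctional enzyme and a PPAR target in liver, was the lowest of the 9 at 3.11 to 5.57 CPM.

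Over the 21 oxidation genes tested, the median log2 fold change was 0.0079 for MPTP against Ctrl, 0.015 for the diet group against MPTP and 0.0026 for the diet group against Ctrl. The 95% interval lay within 1.5-fold in either direction for 21, 20 and 20 of the 21, where 76%, 75.6% and 75.9% of all tested genes had intervals that narrow. The exception was Ehhadh, the tested oxidation gene of lowest level, whose fold interval ran from 0.628 to 1.27 for the diet group against MPTP and from 0.657 to 1.33 against Ctrl. Ehhadh is singled out after its values were seen. The shares over all tested genes cover every level above the filter, and none was taken over genes of like level alone. The estimates themselves lay between -0.27 and 0.27. With 1 library left out the median for the diet group against Ctrl ranged from -0.019 (without library 2 of the diet group) to 0.02 (without library 1), and that for MPTP against Ctrl from -0.033 (without MPTP 1) to 0.015 (without MPTP 2).

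The 4 genes that form or cleave acyl-CoA passed no test. Acsl1, the long-chain synthetase of the outer membrane, lay at 37.9 to 50.8 CPM, and Acsf2, a medium-chain synthetase, at 15.7 to 21.6 CPM. Of the thioesterases, Acot1 of the cytosol lay at 8.84 to 10.8 CPM and Acot2 of mitochondria at 4.73 to 6.88 CPM. Acot1 and Acot2 are near copies: 16.3% of the 100-base stretches of Acot1 occur in Acot2 and 17.1% of those of Acot2 in Acot1, so reads may be exchanged between them. Their groups overlapped in every comparison, and the median log2 fold changes of the 4 were 0.0039, -0.005 and -0.02 in the order of the comparisons above.

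**Figure D2:**
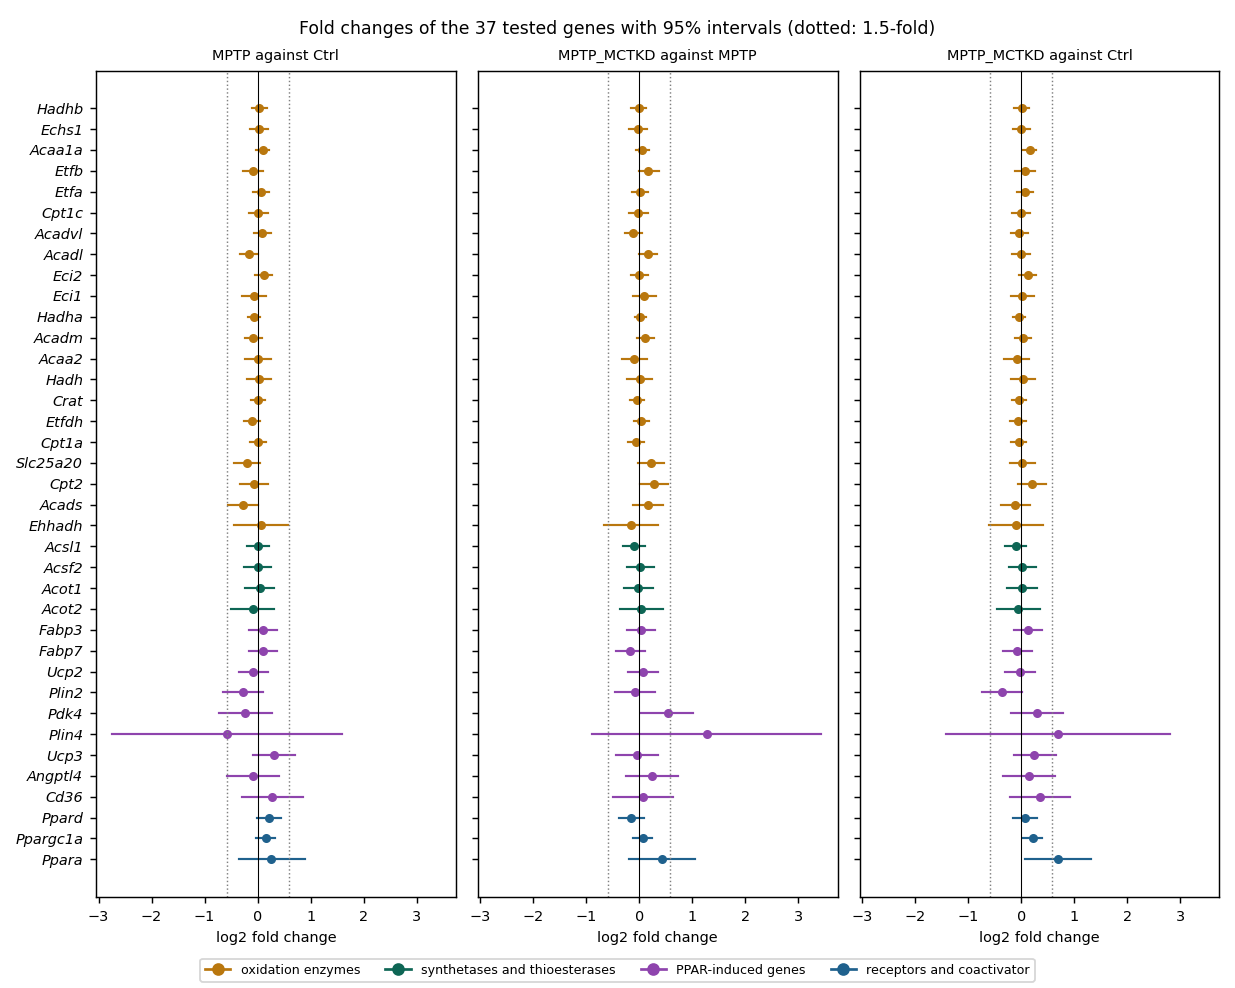
Log2 fold changes of the 37 tested genes in the 3 comparisons (points), with 95% intervals (bars), genes ordered by level within each role and dotted lines at 1.5-fold. The oxidation enzymes lie near 0 with short bars, and Plin4 has the longest bars, from -0.9 to 3.43 for the diet group against MPTP.

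Among the PPAR-induced genes, Pdk4 encodes the kinase that shuts pyruvate out of oxidation when fat is burned. Pdk4 (chromosome 6, 5483351 to 5496309, minus strand) held 14.7, 11.5 and 11.8 CPM in Ctrl, 10.1, 9.7 and 12.6 CPM in MPTP and 10.8, 21.3 and 14.6 CPM in the diet group. Library 2 of the diet group was the highest, Ctrl 1 and library 3 of the diet group came next, and the groups overlapped. Its log2 fold change was 0.53 (SE 0.223) for the diet group against MPTP, with unadjusted p of 0.0397 and adjusted p of 0.63 by edgeR. It was 0.23 without library 2 of the diet group and 0.73 without library 1. For MPTP against Ctrl it was -0.23 (SE 0.223, adjusted p 0.954), and -0.1 without Ctrl 1. Against Ctrl the diet group stood at 0.3 (SE 0.221, adjusted p 0.849), and 0.0095 without library 2 of the diet group.

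Plin4 encodes a perilipin of lipid droplets, best known from fat and muscle. Plin4 (chromosome 17, 56100591 to 56109803, minus strand) held 26.1, 7.35 and 5.31 CPM in Ctrl, 4.87, 15 and 6.41 CPM in MPTP and 6.08, 30.3 and 26.6 CPM in the diet group. Ctrl 1 and libraries 2 and 3 of the diet group were high, MPTP 2 was intermediate, and the other 5 libraries were low, so each group held both high or intermediate and low libraries. The log2 fold change was -0.57 (SE 0.892, adjusted p 0.973) for MPTP against Ctrl, 1.27 (SE 0.893, adjusted p 0.764) for the diet group against MPTP and 0.7 (SE 0.872, adjusted p 0.922) for the diet group against Ctrl, by edgeR. The fold interval for the diet group against MPTP ran from 0.535 to 10.8. Leaving out 1 library moved the estimate for MPTP against Ctrl from -1.2 (without MPTP 2) to 0.47 (without Ctrl 1). It moved that for the diet group against MPTP from 0.91 (without library 2 of the diet group) to 1.9 (without MPTP 2), and that for the diet group against Ctrl from 0.33 (without Ctrl 3) to 1.73 (without Ctrl 1).

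Angptl4, a secreted inhibitor of lipoprotein lipase and a widely used PPAR reporter, held 3.17, 3.43 and 3.33 CPM in Ctrl, 2.49, 2.87 and 3.96 CPM in MPTP and 4.12, 3.14 and 3.76 CPM in the diet group. The groups overlapped, and MPTP held both the lowest library and one of the 2 highest. Its log2 fold change was -0.09 (SE 0.227, adjusted p 0.983), 0.24 (SE 0.227, adjusted p 0.82) and 0.15 (SE 0.226, adjusted p 0.932) in the order MPTP against Ctrl, diet group against MPTP and diet group against Ctrl, by edgeR. A library left out moved these to between -0.3 (without MPTP 3) and 0.049 (without MPTP 1), between 0.11 (without MPTP 1) and 0.46 (without MPTP 3), and between 0.06 (without library 1 of the diet group) and 0.26 (without library 2 of the diet group). Its counts and FPKM values implied transcript lengths differing 1.39-fold between libraries, so the 2 scales rank its libraries differently.

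Plin2, the droplet perilipin of most tissues, held 9.84, 9.85 and 10.8 CPM in Ctrl, 7.67, 8.06 and 9.45 CPM in MPTP and 6.31, 10.3 and 7.15 CPM in the diet group. The MPTP libraries lay below every Ctrl library, while library 2 of the diet group lay among the Ctrl libraries. The diet group differed from Ctrl by -0.36 on the log2 scale (SE 0.174, adjusted p 0.749 by edgeR), with -0.59 without library 2 of the diet group and -0.22 without library 1. Ucp3, an uncoupling protein that PPARs induce in muscle, held 5.35, 4.65 and 4.33 CPM in Ctrl, 5.8, 6.71 and 5.2 CPM in MPTP and 4.7, 6.28 and 6.13 CPM in the diet group. Its groups overlapped, and MPTP differed from Ctrl by 0.3 on the log2 scale (SE 0.185, adjusted p 0.922 by edgeR). Ucp2, the more widely expressed relative, lay at 35.7 to 50 CPM with overlapping groups.

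For uptake and binding of fatty acids, Cd36, the membrane scavenger receptor, held 2.1, 1.48 and 1.41 CPM in Ctrl, 2.01, 1.96 and 2.11 CPM in MPTP and 2.19, 1.79 and 2.39 CPM in the diet group, on 49 to 84 reads a library. Ctrl 2 and Ctrl 3 were the lowest, and Ctrl 1 lay among the others. Its log2 fold change was 0.28 (SE 0.267, adjusted p 0.952) for MPTP against Ctrl, 0.069 (SE 0.265, adjusted p 0.969) for the diet group against MPTP and 0.35 (SE 0.266, adjusted p 0.849) for the diet group against Ctrl, by edgeR. Leaving out 1 library moved the estimates against Ctrl to between 0.18 (without Ctrl 3) and 0.49 (without Ctrl 1) for MPTP and to between 0.25 and 0.56 for the diet group, at the same omissions. Fabp7, the fatty acid carrier of astrocytes and radial glia, held 26.6, 27.2 and 25.8 CPM in Ctrl, 30.2, 28.5 and 26.7 CPM in MPTP and 31, 20.2 and 24.4 CPM in the diet group. Library 2 of the diet group was the lowest and library 1 the highest of the 9, and the log2 fold change of the diet group against MPTP was -0.18 (SE 0.125, adjusted p 0.757 by edgeR), with -0.038 without library 2 of the diet group and -0.35 without library 1. Fabp3, the heart form, lay at 22.9 to 33.6 CPM with overlapping groups, and 21.7% of its 100-base stretches occur in the pseudogene Fabp3-ps1.

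Over the 9 PPAR-induced genes the median log2 fold change was -0.084 for MPTP against Ctrl, 0.067 for the diet group against MPTP and 0.15 for the diet group against Ctrl. Of the 9, 4, 5 and 3 had an interval within 1.5-fold in these comparisons. Estimates were above 0 for 4, 6 and 6 of them and below 0 for 5, 3 and 3, so they did not share a direction in any comparison. With 1 library left out the median ranged from -0.15 (without MPTP 3) to 0.1 (without Ctrl 1) for MPTP against Ctrl and from 0.066 (without library 2 of the diet group) to 0.24 (without Ctrl 2) for the diet group against Ctrl.

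**Figure D3:**
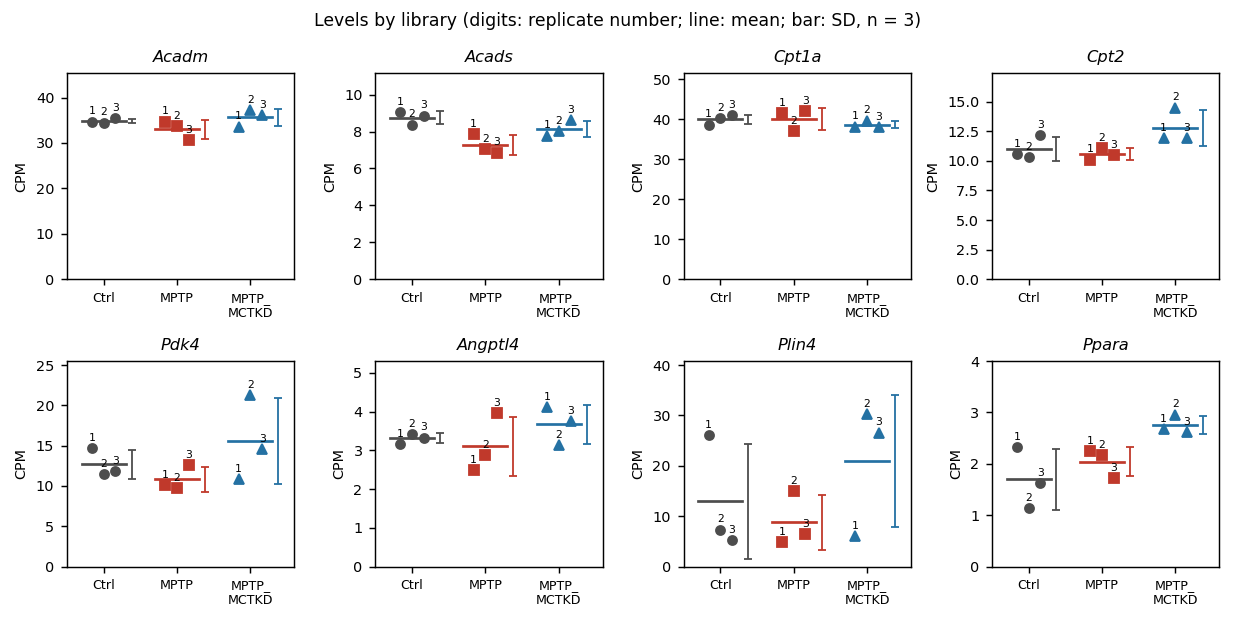
CPM in each library for 4 oxidation genes (top row) and for 3 PPAR-induced genes and Ppara (bottom row). Points are libraries with their replicate numbers, lines are group means and bars are the SD of 3 libraries. Libraries of Acadm lie between 30.6 and 37.3 CPM, and those of Plin4 between 4.87 and 30.3 CPM with high and low libraries in the same group.

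The receptors were at unequal levels. Ppard lay at 9.6 FPKM, Ppara at 0.677 FPKM and Pparg at 0.396 FPKM, and the ratio of Ppard to Ppara was 14.6 ± 3.2 (SD over 9 libraries), lying between 10.9 and 20.5. Ppara, the receptor that drives oxidation genes in liver, held 2.32, 1.14 and 1.63 CPM in Ctrl, 2.24, 2.17 and 1.72 CPM in MPTP and 2.68, 2.96 and 2.62 CPM in the diet group, on 44 to 99 reads a library. All 3 diet libraries lay above all 6 others. The log2 fold change of the diet group against Ctrl was 0.69 (SE 0.288), with unadjusted p of 0.0311 and adjusted p of 0.74 by edgeR. It was 0.47 without Ctrl 2 and 0.99 without Ctrl 1. The diet group against MPTP gave 0.43 (SE 0.286, adjusted p 0.74) and MPTP against Ctrl gave 0.26 (SE 0.29, adjusted p 0.956), the latter 0.042 without Ctrl 2 and 0.56 without Ctrl 1. In FPKM the order was less clear. The values of Ppara were 0.64, 0.422 and 0.621 FPKM in Ctrl, 0.714, 0.599 and 0.801 FPKM in MPTP and 0.736, 0.845 and 0.719 FPKM in the diet group. On that scale the diet group still lay above Ctrl but overlapped MPTP, and the transcript lengths implied by the 2 scales differed 1.67-fold between libraries.

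Ppard, the form expressed in most brain cells, held 33.2, 30.1 and 29.9 CPM in Ctrl, 42, 36.7 and 29.5 CPM in MPTP and 33.4, 32.1 and 32.3 CPM in the diet group. MPTP held both the 2 highest libraries and the lowest one, and the log2 fold change of MPTP against Ctrl was 0.21 (SE 0.106, adjusted p 0.904 by edgeR). It was 0.09 without MPTP 1 and 0.34 without MPTP 3. Ppargc1a, the coactivator PGC-1 alpha that drives mitochondrial biogenesis, held 54.7, 58.2 and 51.5 CPM in Ctrl, 62.7, 67.7 and 52.5 CPM in MPTP and 61.7, 65 and 64.4 CPM in the diet group. The diet libraries were all above the Ctrl libraries, and MPTP overlapped both. The log2 fold change of the diet group against Ctrl was 0.22 (SE 0.0835), with unadjusted p of 0.0215 and adjusted p of 0.74 by edgeR. For MPTP against Ctrl it was 0.15 (SE 0.0836, adjusted p 0.915), with 0.074 without MPTP 2 and 0.25 without MPTP 3. Pparg, the receptor of fat cells, held 14 to 43 reads a library and was not tested.

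Genes with a small unadjusted p, none of them near the adjusted threshold, are counted beside the background. At an unadjusted p under 0.05 by edgeR, 0 of the 37 genes stood for MPTP against Ctrl, where 5.36% of all tested genes did, 2.68% higher and 2.69% lower. The diet group against MPTP gave 2, Cpt2 and Pdk4, both higher, against 7.78% of all, 3.76% higher and 4.02% lower. The diet group against Ctrl gave 3, Acaa1a, Ppargc1a and Ppara, all higher, against 6.73%, 3.36% higher and 3.36% lower. With so few genes in the set, these counts are given as a description.

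Genes whose groups did not overlap in CPM were also counted. For MPTP against Ctrl, 2 of the 37 genes had every MPTP library above every Ctrl library (Eci2 and Acaa1a), beside 5.14% of all tested genes, and 5 had every MPTP library below (Slc25a20, Acadl, Acads, Etfdh and Plin2), beside 5.41%. For the diet group against MPTP, 3 lay wholly above (Cpt2, Slc25a20 and Ppara), beside 6.64%, and 0 wholly below, beside 7.1%. For the diet group against Ctrl, 4 lay wholly above (Eci2, Acaa1a, Ppara and Ppargc1a), beside 6.28%, and Etfdh alone lay wholly below, beside 6.4%.

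The roles differed in how far libraries of the same group were spread. The within-group SD of log2(CPM + 0.1) had a median of 0.09 over the 21 oxidation genes, 0.15 over the 4 synthetases and thioesterases, 0.16 over the 3 regulators and 0.21 over the 9 PPAR-induced genes. All tested genes had a median of 0.12, with 0.056 at the 10th and 0.38 at the 90th percentile. Each gene was also set beside the tested genes of like level, a broad band of mean CPM around its own. The band held 5180 genes for Etfdh, 4306 for Pdk4 and 4475 for Plin4. Etfdh was lowest at 0.032, below nearly all genes of like level, since only 0.212% of them were more even. The oxidation genes were not all even for their level. Hadha exceeded 3.17% and Acads 3.3% of genes of like level, but Hadh exceeded 69.8% and Cpt1c 81.4%. Pdk4, at 0.32, exceeded 92.8% of the genes of like level. Plin4 was highest at 1.12, above 99.8% of them, and its highest library was 6.23 times its lowest. Among the other PPAR-induced genes, Ucp2 exceeded 93.9% of genes of like level, Fabp7 88.3%, Fabp3 88% and Plin2 72.6%. Ucp3 exceeded 35.2%, Angptl4 31.3% and Cd36 12%, so a wide spread for the level was not shared by all 9.

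**Figure D4:**
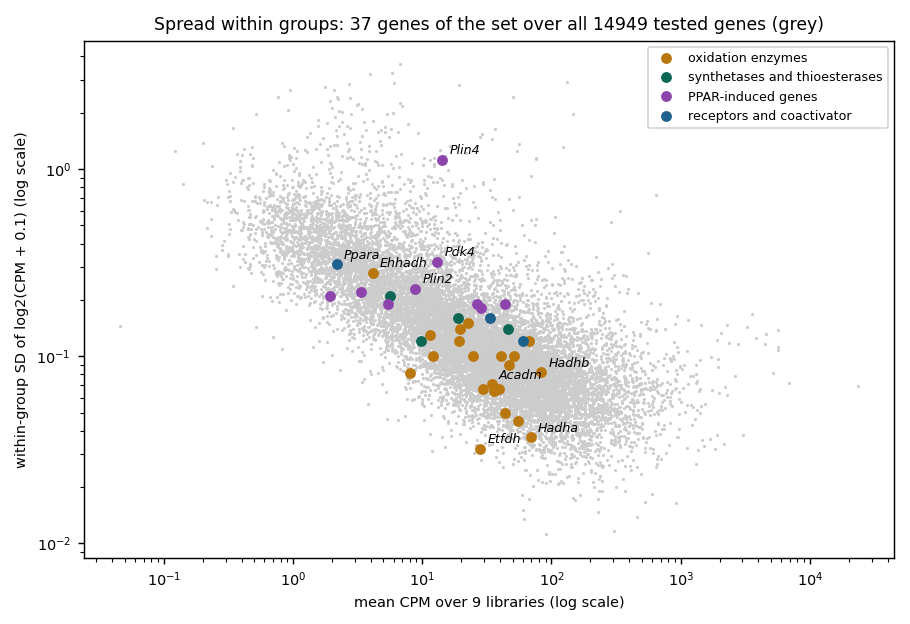
Within-group SD of log2(CPM + 0.1) against mean CPM, both on log axes, for the 37 tested genes (coloured by role) and all tested genes (grey). Plin4 stands at 1.12, far above genes of its level, and Etfdh at 0.032 lies at the lower edge.

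Other genes were high in the libraries in which Plin4 was high. A list of 12 glucocorticoid response genes summed to 810, 529 and 504 CPM in Ctrl, 506, 535 and 476 CPM in MPTP and 545, 838 and 753 CPM in the diet group. The 3 libraries highest in this sum, Ctrl 1 and libraries 2 and 3 of the diet group, were the 3 highest in Plin4 and in Pdk4. Of its members, Zbtb16 held 43.8, 57 and 61.9 CPM in those 3 libraries and 11 to 24.3 CPM in the other 6. Fkbp5, the chaperone induced by glucocorticoids, held 48.7, 53.4 and 53.1 CPM against 22.7 to 31.1 CPM. With the list's score as a covariate, an alternative chosen after the data were seen, the log2 fold change of Plin4 was 0.6 for MPTP against Ctrl, -0.65 for the diet group against MPTP and -0.047 for the diet group against Ctrl. The 12 meningeal fibroblast markers summed to 318, 240 and 232 CPM in Ctrl, 117, 127 and 218 CPM in MPTP and 136, 292 and 357 CPM in the diet group and the same 3 libraries were again the 3 highest. With the meningeal score as a covariate the estimate of Plin4 was 0.75 for MPTP against Ctrl and -0.014 for the diet group against MPTP, and that of Pdk4 for MPTP against Ctrl was 0.1. The part of either list in these values was not tested. Of 10 fat cell markers 2 were high enough to be tested, and the 10 summed to 17.4 to 18.6 CPM in Ctrl, 18.5 to 22 CPM in MPTP and 16.6 to 20.1 CPM in the diet group, most of it Lipe. Lep was at 0 in all 9 libraries and Adipoq at 0 in 7 of them. The 10 astrocyte markers summed to 3917 to 4086 CPM, 4062 to 4241 CPM and 4160 to 4271 CPM in the same order.

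**Figure D5:**
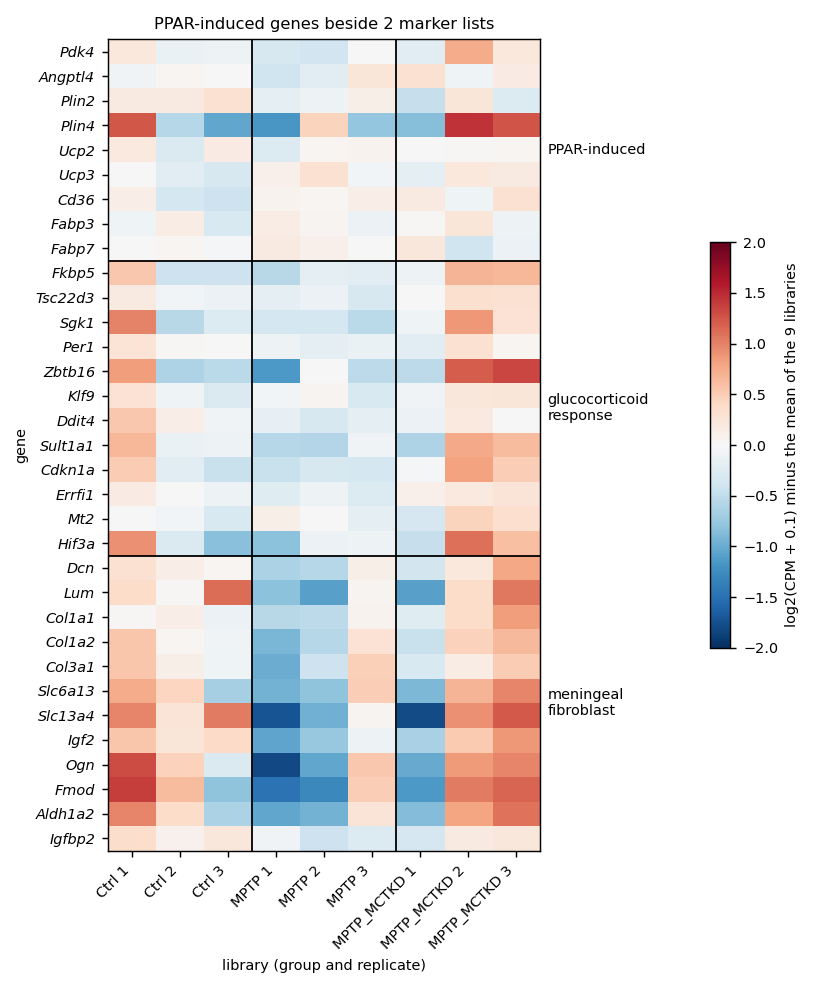
Level of the 9 PPAR-induced genes, 12 glucocorticoid response genes and 12 meningeal fibroblast markers in each library, as log2(CPM + 0.1) minus the gene's mean over the 9 libraries (colour from -2 to 2). Plin4, Pdk4 and most genes of the other lists are high in Ctrl 1 and in libraries 2 and 3 of the diet group. The remaining PPAR-induced genes, Plin2, Ucp2, Ucp3, Cd36, Fabp3, Fabp7 and Angptl4, do not follow them.

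Further genes of the pathway that are not in the set were looked at as 2 lists of 36. All 36 other fatty acid oxidation genes were tested and 0 passed in each comparison by edgeR. At an unadjusted p under 0.05 there were 2 for MPTP against Ctrl, 2 for the diet group against MPTP and 0 for the diet group against Ctrl. Of all tested genes 5.36%, 7.78% and 6.73% stood there in these comparisons by edgeR. The smallest p for MPTP against Ctrl belonged to Slc27a1, a fatty acid transporter, with log2 fold change 0.2 (SE 0.0701), and Decr1, which handles double bonds, with 0.21 (SE 0.0861), each with adjusted p of 0.893 by edgeR. Between the diet group and MPTP they belonged to Dbi, the acyl-CoA binding protein, at 0.17 (SE 0.0648, adjusted p 0.627, and 0.11 without MPTP 1) and to Crot, the peroxisomal carnitine octanoyltransferase, at 0.21 (SE 0.0855, adjusted p 0.63). Against Ctrl the diet group gave Crot at 0.16 (SE 0.0853, adjusted p 0.778) and Decr1 at 0.16 (SE 0.0862, adjusted p 0.785). The median log2 fold changes of the list were 0.032, 0.0026 and 0.042.

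Of 36 other PPAR target and lipid droplet genes 25 were tested, and again 0 passed in each comparison by edgeR. At an unadjusted p under 0.05 there were 1, 2 and 2, beside 5.36%, 7.78% and 6.73% of all tested genes. For MPTP against Ctrl the smallest p belonged to Klf15, a regulator of fasting metabolism, with an estimate of -0.35 on the log2 scale (SE 0.141, adjusted p 0.893), and to Rxrg, a PPAR partner, at -0.33 (SE 0.186, adjusted p 0.915). Klf15 stood at -0.22 without Ctrl 1 and Rxrg at -0.11 without Ctrl 3. Between the diet group and MPTP they belonged to Lpl, lipoprotein lipase, at 0.56 (SE 0.229, adjusted p 0.63) and Ech1, a dienoyl-CoA isomerase, at 0.17 (SE 0.0743, adjusted p 0.63), the latter 0.1 without library 3 of the diet group. Against Ctrl the diet group gave Rxrg at -0.57 (SE 0.187, unadjusted p 0.00913, adjusted p 0.74) and Plin3, a further perilipin, at 0.28 (SE 0.11, adjusted p 0.74). Rxrg held 8.84, 9.3 and 13.6 CPM in Ctrl, 6.99, 8.09 and 10.1 CPM in MPTP and 7.5, 6.4 and 7.46 CPM in the diet group, with Ctrl 3 highest and every diet library below every Ctrl library. Without Ctrl 3 its estimate for the diet group against Ctrl was -0.35.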

How the data were processed

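The authors deposited 1 table with raw counts and FPKM of every gene in the 9 libraries, per the file headers. RNA was taken up on Qiagen columns and made into libraries with a NEBNext Ultra kit, per the labels' protocols. The build is GRCm38 (mm10), per the submitters' processing notes. The sources used here name no aligner, counter, annotation release or strand. Of 27339 genes 22036 carry an Ensembl identifier and 5303 the authors' own, and 10 lines that name no gene were left out. Libraries were mapped to groups by title. The 39 genes and all lists were chosen with earlier results of these data known.

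Counts went into the robust quasi-likelihood test of edgeR 4.0.16 under R 4.3.3, with TMM factors of 0.9833 to 1.016 and 9 libraries in 1 model of 3 groups. It covered the 14949 genes whose mean FPKM reached 0.5. Adjusted p-values are Benjamini-Hochberg values over all of them, with a threshold of 0.05. The common biological coefficient of variation was 0.134. CPM use TMM-scaled library sizes, and a pseudocount of 0.1 enters the log2 spread. The script was tested on simulated data. DESeq2 1.42.0, limma 3.58.1 on log2(FPKM + 0.1) and log2(FPKM + 1), other filters and scalings, covariates, a replicate block and each library left out were tried as alternatives. Coordinates come from GENCODE M21.

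Levels are given for all 39 genes. Fold changes and p-values are printed for Acadm, Cpt1a, Pdk4, Angptl4, Plin4, Cd36 and Ppara, for any gene of the set past the threshold, and in each comparison for the 3 oxidation genes and 3 others of smallest p, and for 2 of each list of further genes. Same-numbered libraries of MPTP and the diet group deviated together weakly from their group means (correlations 0.182, 0.107 and 0.113, each over the minimum of 0.1). Same-numbered libraries of MPTP and Ctrl (-0.00849, -0.151 and 0.0472) and of the diet group and Ctrl (0.0783, -0.00735 and 0.00791) did not. Differently numbered libraries were not set beside these, so the check cannot show that the numbers pair libraries, and the labels state no pairing.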

Additional observations from a re-analysis of the deposited data

How the results depend on the processing

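The count of genes of the set past the threshold was 0 in all 3 comparisons under all 63 alternative values, DESeq2, limma and each library left out among them. Of 1001 fold changes of named genes under alternatives 986 kept their sign and 15 did not. With the meningeal score as a covariate, Pdk4 (0.1) and Plin4 (0.75) changed sign for MPTP against Ctrl, and Cd36 (-0.0059) and Plin4 (-0.014) for the diet group against MPTP. With the glucocorticoid response score, added after the data were seen, Cpt1a (-0.0046) and Plin4 (0.6) did for MPTP against Ctrl, Cd36 (-0.08) and Plin4 (-0.65) for the diet group against MPTP, and Plin4 (-0.047) for the diet group against Ctrl. With 1 library left out, the ranges that crossed 0 were -0.025 to 0.067 for Cpt1a, -1.2 to 0.47 for Plin4 and -0.3 to 0.049 for Angptl4 for MPTP against Ctrl, and -0.025 to 0.18 for Cd36 for the diet group against MPTP. The cause was not tested. The median of the oxidation genes for MPTP against Ctrl ranged from -0.033 to 0.015, and that of the PPAR-induced genes from -0.15 (without MPTP 3) to 0.1 (without Ctrl 1).

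The replicate block, which pairs libraries by number, called 0 genes of the set in each comparison and changed no other call among them. Over all tested genes the counts of calls moved: 2 for MPTP against Ctrl became 14 by DESeq2, 0 by limma with either pseudocount, 0 without robust moderation, 0 with the choroid plexus score, 1 with the meningeal score and 0 to 4 with a library left out. The 0 for the diet group against MPTP became 19 by DESeq2 and 0 to 1 with a library left out. The 0 for the diet group against Ctrl became 16 by DESeq2, 1 without a filter, 4 with only the groups compared, 5 with the replicate block and 0 to 4 with a library left out. Depth limits Ppara and Cd36, with 44 to 99 and 49 to 84 reads a library.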

Other observations

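Beside the genes described above, relatives of several of them were at much higher levels in this tissue. Acsl3 and Acsl6, long-chain synthetases, lay at 69.6 and 64.9 FPKM, against 11.4 FPKM for Acsl1. Acot7, the thioesterase of neurons, lay at 200 FPKM, against 4.06 FPKM for Acot1. Dbi, which binds acyl-CoA, lay at 142 FPKM and Fabp5 at 64.4 FPKM. PPAR targets that are hallmarks of liver were near 0, with Cyp4a10 at 0.00832 FPKM, Cyp4a14 at 0.00466 FPKM, Fgf21 at 0.0159 FPKM and Fabp1 at 0.0915 FPKM, and so were the fat cell genes Fabp4 at 0.0223 FPKM and Plin1 at 0.0302 FPKM. All are means over 9 libraries, and these genes were chosen for their levels after the values were seen.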
